A study of Mus musculus with 3 samples.

Results

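Within the third of 3 droplet sequencing runs of sorted mouse hippocampal myeloid cells, 1064 of 6032 passing cells carried a high level of immediate early transcripts. The immediate early-high cells were chosen by their measured counts, as those in which Fos, Jun, Junb, Egr1, Dusp1, Ier2, Atf3 and Zfp36 together made up at least 0.5% of a cell's UMIs. A UMI (unique molecular identifier) stands for 1 captured RNA molecule. A passing cell had at least 1000 UMIs and 500 genes, at most 10% mitochondrial UMIs and fewer than 20 summed UMIs of the MHC class II genes H2-Aa, H2-Ab1 and H2-Eb1. The immediate early-high cells made up 17.6% of the passing cells of run 3 (exact 95% binomial interval 16.7 to 18.6%, counting error only), and the 3 runs together held 19677 passing cells. The same rule was met by 8 of 6955 cells in run 1 (0.115%, 0.0497 to 0.227%) and by 15 of 6690 cells in run 2 (0.224%, 0.126 to 0.370%). Run and state cannot be told apart here, so each comparison below is with the other 4968 passing cells of run 3.

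The cells were tdTomato-positive cells sorted as viable from both hippocampi of PBS-perfused mice of the genotype Cx3cr1CreERT2/+; Rosa26tdTomato/+; NestinTK-eGFP/+, after magnetic removal of myelin. Cx3cr1CreERT2 is a Cre recombinase driven from Cx3cr1, a gene that microglia and related macrophages express, and tamoxifen lets it switch on the tdTomato reporter. All animals carried these alleles and the NestinTK-eGFP transgene, and all received tamoxifen at 100 mg/kg on 4 days. The series lists 12 animals, 6 male and 6 female, without assigning them to runs, and it contains no untreated or other genotype group. With 1 library there is no replicate, so ratios are given with intervals that cover counting error only and no test between cells is made.

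Immediate early genes are transcribed within minutes of a signal, from promoters that are ready before the signal comes and without new protein synthesis. Kinase cascades act on the promoter-bound factors SRF and CREB, and the first products are transcription factors of the AP-1, EGR and KLF families together with phosphatases and RNA-binding proteins that shut the response down again. In microglia the programme is known to follow many stimuli, tissue dissociation among them. The labels give the same protocol for all 3 runs, but no handling time or temperature for each run. What set run 3 apart was not tested.

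The selected cells carried the markers of microglia. At least 10 UMIs of 10 microglial markers, among them P2ry12, Tmem119 and Csf1r, were found in 1063 of the 1064 cells and in 4954 of the 4968 other cells. These markers made up a median 3.85% of UMIs in the immediate early-high cells and 3.96% in the others. The depth was close in both populations, with a median of 3663.5 against 3702 UMIs and 1737 against 1779 genes per cell. Mitochondrial transcripts made up 2.44% against 2.62% of UMIs. Markers of astrocytes, oligodendrocytes, neurons, endothelium and choroid plexus made up a median of 0.0327% of UMIs against 0.0321%. The highest value was 0.316% in an immediate early-high cell and 47.4% in another cell.

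Of the other blood and border cells this reporter or sort could hold, border macrophages were present. The 8 border macrophage markers, among them Mrc1, Pf4 and F13a1, summed to 163 CPM (UMIs summed over cells, in counts per 1000000 UMIs) in the immediate early-high cells and 93.9 CPM in the others. At least 3 of these UMIs were found in 12 immediate early-high cells and 37 others. The 4 of these markers with at least 10 CPM were each at least 1.5-fold higher, with a median log2 ratio of 0.79. Without the cells with at least 3 of these UMIs the markers stood at 4.45 against 5.72 CPM. All 8 markers of T and NK cells were at 0 UMIs in the immediate early-high cells, against 319 UMIs in the others. To count such cells, each cell was thinned at random to the same depth. At least 3 T and NK marker UMIs were then found in 6 of 4834 other cells (0.124%, 0.0456 to 0.270%). The same held for 0 of 1029 immediate early-high cells (0 to 0.358%). These intervals overlap, so a lower share of such cells cannot be told from counting error. Monocyte markers summed to 3.90 against 8.27 CPM. Neutrophil markers stood at 180 against 177 CPM, with 4 of the 6 genes at 0 UMIs in the immediate early-high cells. Nearly all of this sum was Csf3r, with 738 of 739 UMIs in the immediate early-high cells and 3457 of 3475 in the others.

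A single cell's share of the rule genes ran without a gap across the threshold. It had a median of 0.718% in the selected cells, from 0.5004 to 2.49%, and of 0.133% in the other cells of run 3. Over all passing cells the medians for runs 1, 2 and 3 were 0.0307, 0.0427 and 0.174%, and 9 cells in 10 lay under 0.0880, 0.124 and 0.679%. The median cell selected held 27 UMIs of the 8 genes, with a range of 7 to 104. Just inside the threshold, the 276 cells at 0.5 to 0.6% had a median of 20 rule-gene UMIs, Btg2 at 2162 CPM and Klf2 at 253 CPM. Just outside, the 366 cells at 0.4 to 0.5% had 16 UMIs, Btg2 at 1924 CPM and Klf2 at 206 CPM. The selected cells are therefore the upper range of a measured share without a gap, which carries counting error at these UMI counts.

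**Figure D1:**
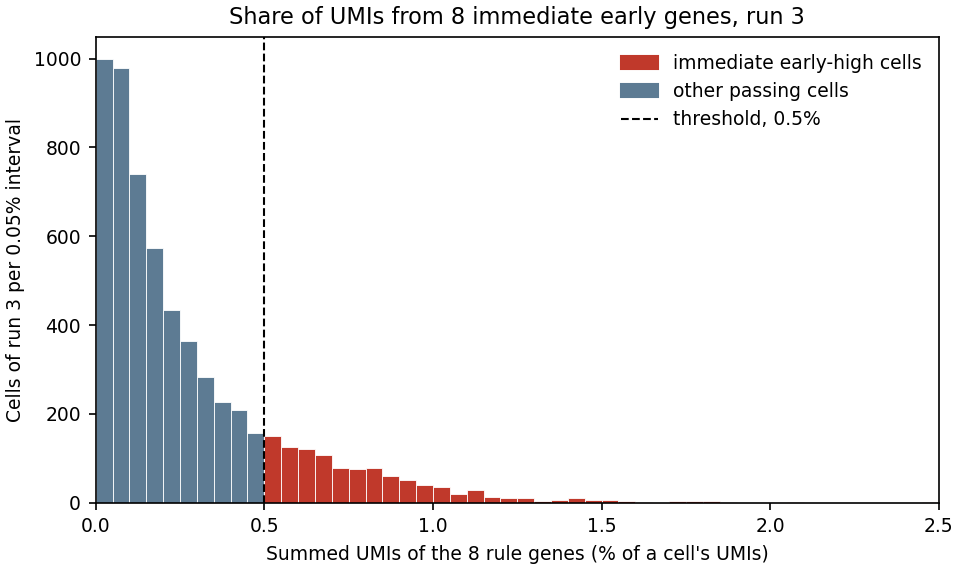
Number of passing cells of run 3 (vertical axis) by the share of their UMIs that comes from the 8 rule genes (horizontal axis, in percent, intervals of 0.05%). Counts fall smoothly across the dashed threshold at 0.5%, with 1064 cells at or above it in red and 4968 below it in blue.

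The rule genes themselves are described here without a test, since their sum chose the cells. Together they made up 0.775% of all UMIs of the immediate early-high cells and 0.169% of those of the other cells. Fos encodes the AP-1 subunit that pairs with Jun proteins. It (ENSMUSG00000021250, GRCm38 chromosome 12, 85473890 to 85477273) stood at 259 against 17.0 CPM, a ratio of 15.3 (95% counting interval 13.5 to 17.3). Jun, its main partner (ENSMUSG00000052684, chromosome 4, 95049034 to 95052222), was at 3037 against 764 CPM, a ratio of 3.97 (3.88 to 4.07). Junb (ENSMUSG00000052837, chromosome 8, 84974484 to 84978718) was at 2006 against 504 CPM (3.98-fold). The zinc finger factor Egr1 was at 1063 against 124 CPM (8.56-fold, 8.15 to 9.003). Atf3, a stress-induced partner of AP-1 proteins, had 40.2 against 23.4 CPM, the smallest ratio of the rule genes at 1.72 (1.43 to 2.05).

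The remaining 3 rule genes have other roles. Dusp1, the phosphatase that inactivates MAP kinases (ENSMUSG00000024190, chromosome 17, 26505590 to 26562128), was at 113 against 10.6 CPM, a ratio of 10.7 (9.08 to 12.7). Ier2, which encodes a nuclear regulatory protein, was at 427 against 50.04 CPM (8.53-fold). Zfp36 encodes tristetraprolin, which binds AU-rich messenger RNAs and hastens their decay (ENSMUSG00000044786, chromosome 7, 28376784 to 28380253), and it was at 802 against 200.3 CPM (4.001-fold). Fos, Dusp1, Egr1 and Ier2 thus had the larger ratios, while Jun and Junb had a UMI in most cells of both populations (77.1 and 68.7% of the others).

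Jun and Junb carried most of the score. Jun gave 39.2% of the rule-gene UMIs of the immediate early-high cells, Junb 25.9%, Egr1 13.7%, Zfp36 10.3%, Ier2 5.51%, Fos 3.35%, Dusp1 1.46% and Atf3 0.519%. Jun was the rule gene with the most UMIs in 746 cells (70.1%), Junb in 242 and Egr1 in 48. At least 1 Fos UMI was found in 377 of the selected cells (35.4%) and in 4.53% of the others, at the median depths given above. Fos is therefore a minor part of what the rule measures, although it is the best known member of the set.

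More of the rule genes were detected per selected cell, which the rule itself sets in part. After each cell had been thinned at random to 2000 UMIs, which left out 35 selected and 134 other cells, the median cell held 4 of the 8 genes in the selected cells and 2 in the others. At least 5 of the 8 were detected in 45.6% against 1.51%. Each gene was also read in the cells that the other 7 chose at the same 0.5% threshold, so that its own counts took no part in the choice. Fos was 10.6-fold higher in 1034 cells so chosen than in the rest, Dusp1 8.34-fold in 1048, Ier2 6.605-fold in 991 and Egr1 5.64-fold in 838. Zfp36 was 3.50-fold higher, Junb 3.16-fold in 617 cells and Jun 3.06-fold in 387 cells. For Atf3 the ratio was 1.36 (1.12 to 1.64), so it followed the other rule genes least.

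Promoter sequences of these genes are shown because SRF and CREB, named above, are textbook regulators of early genes and their sites can be read directly. The RefSeq promoter table (build GRCm38.p6, 250 bases before to 50 after the start site) held 6 of the 8 rule genes and 19 of the 36 other genes described below as at least 2-fold higher. Both strands were searched for the CRE (TGACGTCA), the AP-1 site (TGANTCA), the TATA box (TATAAA) and the CArG box bound by SRF. The motifs do not overlap with each other in the windows shown. The windows run 5′ to 3′ on the strand of the gene. Capitals mark the CArG box of Zfp36, the CRE of Dusp1, Btg2 and Ppp1r15a, the TATA box of Fos and the letters TATAAA in Ppp1r15a, which there lie after the start site.
Zfp36 (chr7:28379179-28379478, - strand): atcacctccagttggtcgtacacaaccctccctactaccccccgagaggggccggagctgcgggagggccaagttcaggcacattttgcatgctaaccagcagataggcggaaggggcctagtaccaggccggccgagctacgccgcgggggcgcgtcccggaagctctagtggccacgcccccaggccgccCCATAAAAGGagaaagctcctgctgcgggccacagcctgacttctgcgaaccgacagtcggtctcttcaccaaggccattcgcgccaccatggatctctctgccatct
Fos (chr12:85473640-85473939, + strand): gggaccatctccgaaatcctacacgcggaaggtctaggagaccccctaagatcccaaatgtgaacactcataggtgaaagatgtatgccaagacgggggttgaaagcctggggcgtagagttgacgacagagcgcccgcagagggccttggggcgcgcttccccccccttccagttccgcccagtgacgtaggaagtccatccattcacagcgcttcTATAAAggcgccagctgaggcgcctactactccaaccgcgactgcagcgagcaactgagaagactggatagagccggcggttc
Dusp1 (chr17:26508423-26508722, - strand): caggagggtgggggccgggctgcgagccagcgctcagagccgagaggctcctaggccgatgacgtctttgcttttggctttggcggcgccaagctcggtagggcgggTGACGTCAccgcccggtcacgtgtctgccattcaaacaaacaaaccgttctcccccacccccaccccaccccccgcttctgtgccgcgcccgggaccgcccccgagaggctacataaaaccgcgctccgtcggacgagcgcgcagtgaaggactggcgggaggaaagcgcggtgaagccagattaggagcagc
Btg2 (chr1:134079106-134079405, - strand): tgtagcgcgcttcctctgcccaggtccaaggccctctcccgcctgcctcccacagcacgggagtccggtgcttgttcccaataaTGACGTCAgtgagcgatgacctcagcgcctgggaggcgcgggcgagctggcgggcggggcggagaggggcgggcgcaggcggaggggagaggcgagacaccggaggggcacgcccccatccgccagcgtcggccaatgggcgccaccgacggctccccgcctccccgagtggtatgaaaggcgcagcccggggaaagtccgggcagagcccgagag
Ppp1r15a (chr7:45526219-45526518, - strand): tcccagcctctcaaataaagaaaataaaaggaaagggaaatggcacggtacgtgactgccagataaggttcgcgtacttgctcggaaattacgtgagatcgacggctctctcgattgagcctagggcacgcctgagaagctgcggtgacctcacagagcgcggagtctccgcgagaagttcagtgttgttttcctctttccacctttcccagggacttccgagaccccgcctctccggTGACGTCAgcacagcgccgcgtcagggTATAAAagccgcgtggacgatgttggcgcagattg
Counted from the start site to the first base of the match, the CArG box of Zfp36 lies at -58, the TATA box of Fos at -33, and the CRE at -143 in Dusp1, at -166 in Btg2 and at -12 in Ppp1r15a. The TATAAA letters of Ppp1r15a lie at 15, on the transcribed side of the start site. Errfi1, not shown, has a CRE at -51. The CRE was found in 1.79% and the CArG box in 1.63% of all promoters of the table, the TATA box in 13.6% and the AP-1 site in 7.81%. Among genes with enough counts to be compared, 3.86% had a CRE, against 3 of the 19 matched genes at least 2-fold higher (15.8%) and 1 of the 6 matched rule genes. On the same basis the CArG box was found in 1.57%, in 0 of the 19 and in 1 of the 6. The AP-1 site was found in 5.67%, in 1 of the 19 and in 0 of the 6. The TATA box letters were found in 7.97%, in 3 of the 19 and in 2 of the 6. A match describes the letters and does not show that the factor was bound.

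Outside the rule genes, the difference between the populations was narrow. Of 8243 genes with at least 10 CPM over all passing cells of run 3, 36 (0.437%) were at least 2-fold higher in the immediate early-high cells and 6 (0.0728%) at least 2-fold lower. At 1.5-fold, 91 genes (1.1%) were higher and 47 (0.57%) lower. The median log2 ratio over all genes was -0.04, and 9 genes in 10 lay between -0.31 and 0.28. Of the 36 genes, 12 belonged to the lists of other early genes described next, 3 were chemokines, 1 was an NF-kappaB inhibitor family member, 3 were histones and 10 were noncoding. The other genes were read from the same cells and UMIs as the rule genes, so their ratios describe the cells and give no separate support to the choice of cells.

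**Figure D2:**
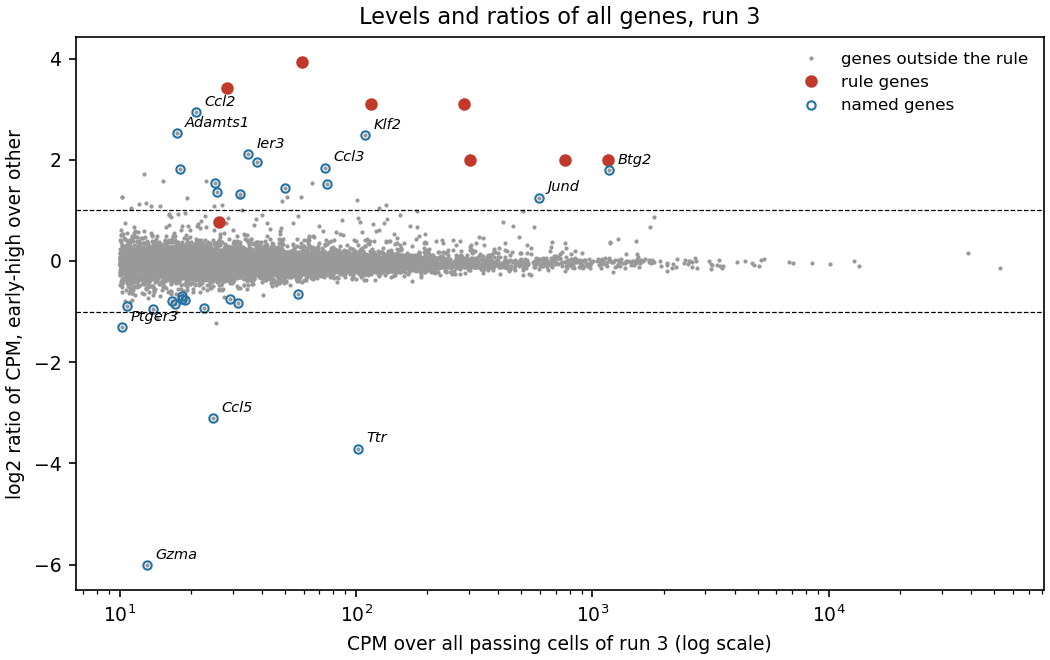
Log2 ratio of CPM, immediate early-high over other cells of run 3 (vertical axis), against the CPM over all passing cells (horizontal axis, log scale), 1 point per gene. Rule genes are filled red, named genes are open circles, and the dashed lines mark 2-fold. Most genes lie near 0, 36 genes outside the rule lie at or above the upper line, and Gzma, Ttr and Ccl5 lie lowest.

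Feedback and signalling genes of the early response stood high as a group. Of 35 genes listed, 21 had enough counts. All 21 had a ratio above 1, with a median log2 ratio of 0.69 against -0.04 for all genes. At least 2-fold higher were 6 of the 21, and 13 were at least 1.5-fold higher. Btg2, an antiproliferative regulator of messenger RNA decay (ENSMUSG00000020423, chromosome 1, 134075170 to 134079120), was at 2847 against 823 CPM, a ratio of 3.46 (3.38 to 3.54).

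The other feedback genes past 2-fold act on stress, cytokine and growth factor signals. Ier3, a regulator of cell death (ENSMUSG00000003541, chromosome 17, 35821684 to 35822923), was at 95.3 against 22.2 CPM (4.30-fold, 3.74 to 4.94). Ppp1r15a, which encodes the phosphatase subunit GADD34 that reverses the translational block by eIF2-alpha (ENSMUSG00000040435, chromosome 7, 45522916 to 45526268), was at 98.2 against 25.4 CPM (3.86-fold, 3.38 to 4.41). Socs3, the inhibitor of JAK-STAT signalling, was at 104 against 38.5 CPM (2.71-fold). Errfi1, an inhibitor of the EGF receptor, was 2.40-fold higher, and Rgs1, which ends G protein signals, 2.17-fold. Smaller ratios were found for Ier5 (1.98), Cited2 (1.80), the tristetraprolin relative Zfp36l1 (1.70), Btg1 (1.60) and Rhob (1.60). Sgk1 (1.14) and Gadd45g (1.05) were close to 1.

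Early transcription factors outside AP-1 differed among themselves. Of 24 listed, 13 had enough counts, 11 of these were above 1 and the median log2 ratio was 0.62. At least 2-fold higher were 4, all of them but Id2 Krüppel-like factors. Klf2, a factor that restrains inflammatory genes in myeloid cells (ENSMUSG00000055148, chromosome 8, 72319033 to 72321656), was at 340 against 60.8 CPM, a ratio of 5.59 (5.17 to 6.05). Klf10 (2.39), Klf4 (2.36) and Klf6 (1.89) followed. Id2, an inhibitor of helix-loop-helix factors, was at 99.2 against 41.1 CPM (2.42-fold). Ets2 (0.878) and Irf1 (0.897) had ratios below 1.

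Several well known early factors fell under the minimum of 10 CPM and are given by their UMIs. Egr3 had 76 UMIs in the immediate early-high cells and 26 in the others (14.0-fold, 8.84 to 22.7), and Egr2 had 42 against 30 (6.68-fold, 4.09 to 11.1). Fosb had 53 against 19 (13.3-fold, 7.76 to 23.8). Nr4a1 had 11 against 40 UMIs, a ratio of 1.31 with an interval of 0.608 to 2.61, so a difference was not detectable at this depth. Arc, an early gene of neurons, had 0 UMIs against 1.

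Of the AP-1 family genes other than the rule genes, Jund and Fosl2 were past 2-fold. Of 11 listed, 7 had enough counts, and their median log2 ratio was 0.03. Jund (ENSMUSG00000071076, chromosome 8, 70698949 to 70700616) was at 1143 against 480 CPM, a ratio of 2.38 (2.30 to 2.47). Fosl2 was at 19.7 against 8.22 CPM (2.40-fold). The others lay between -0.10 and 0.61 on the log2 scale, with Mafk highest among them (1.53-fold, 1.12 to 2.07).

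**Figure D3:**
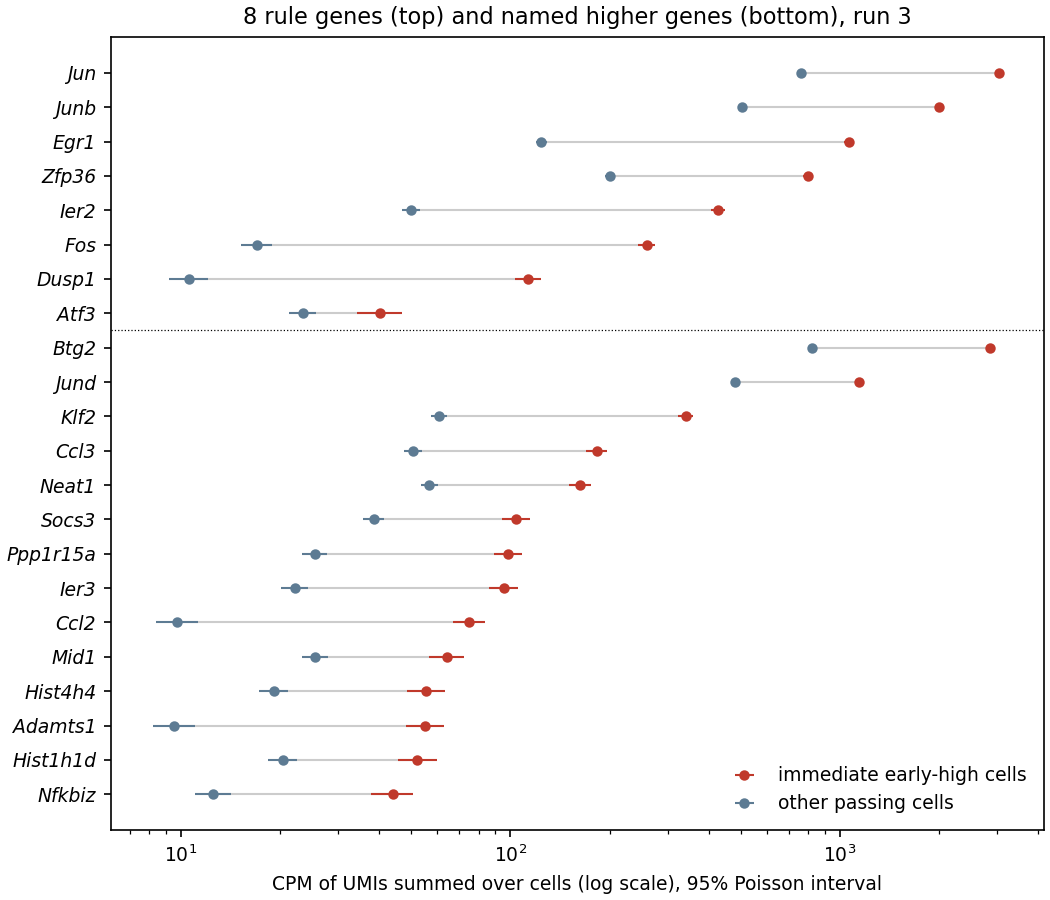
CPM of UMIs summed over cells (horizontal axis, log scale) for the 8 rule genes and the named higher genes, in the immediate early-high cells (red) and the other passing cells of run 3 (blue), with 95% Poisson intervals. The red point lies to the right of the blue one for every gene shown, with the widest gap at Fos and the narrowest at Atf3.

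The chemokine genes Ccl2, Ccl3 and Ccl4 were higher as well, and a few cells held most of the Ccl2 and Ccl4 UMIs. Of 20 inducible chemokines and cytokines listed, 11 had enough counts, with a median log2 ratio of 0.33. Ccl2, which recruits monocytes (ENSMUSG00000035385, chromosome 11, 82035571 to 82037453), was at 74.8 against 9.75 CPM, a ratio of 7.67 (6.38 to 9.24). Its UMIs came from 51 of the immediate early-high cells, and 10 cells held 83.1% of them. Without the 10 highest cells of each population the ratio was 2.81 (1.96 to 4.01). Ccl3 was at 183 against 50.8 CPM (3.60-fold, 3.27 to 3.96) and Ccl4 at 191 against 82.4 CPM (2.32-fold). Without their 10 highest cells these ratios were 3.60 and 2.31. The 10 highest cells held 69.6% of the Ccl4 UMIs of the immediate early-high cells and 69.2% of those of the others. The other chemokine genes of the list went both ways. Ccl9 was at 0.857 (0.794 to 0.924), Cxcl16 at 0.951 (0.819 to 1.10) and Ccl5 at 0.116 (0.0630 to 0.196) of the level in the other cells. Ccl12, Ccl7 and Cxcl10 were higher, as given next.

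Ccl12 was 1.60-fold higher and Il1a 1.26-fold. Without the 10 highest cells of each population the Ccl12 ratio was 1.31 (1.21 to 1.42). Several inflammatory genes under the CPM minimum had wide intervals. Ccl7 had 22 against 25 UMIs (4.20-fold, 2.26 to 7.76). Il1b had 20 against 11 UMIs (8.68-fold, 3.96 to 20.1) and Tnf 67 against 121 (2.64-fold, 1.93 to 3.59). Part of the 20 Il1b UMIs lay in the immediate early-high cells with border macrophage markers, as given below. Cxcl10 had 22 against 4 UMIs (26.3-fold, 8.92 to 105). Cells with at least 3 UMIs of the list, after thinning to 2000 UMIs, made up 22.2% of the immediate early-high cells (19.7 to 24.8%) and 13.9% of the others (12.9 to 14.9%).

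Some inhibitors of the NF-kappaB pathway were higher, while of its subunits Relb alone reached 1.5-fold. Of 17 genes listed, 14 had enough counts, with a median log2 ratio of 0.08. Nfkbiz, an inducible nuclear inhibitor family member, was at 43.9 against 12.5 CPM (3.51-fold, 2.88 to 4.27). Nfkbia, which retains NF-kappaB in the cytoplasm, was 1.77-fold higher and Relb 1.92-fold. Rela (0.903), Nfkb1 (0.970), Rel (1.06) and Tnfaip3 (0.998), a further inhibitor, were close to 1.

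Some histone transcripts and other genes completed the set. Hist4h4 was at 55.6 against 19.1 CPM (2.91-fold) and Hist1h1d at 52.2 against 20.4 CPM (2.56-fold). These 2 genes were not in the list of polyadenylated histones. Of the 8 histone genes listed there, 6 had enough counts, with a median log2 ratio of 0.38, and 1 reached 2-fold. Hist1h2bc (1.08) and Hist3h2a (0.871, 0.769 to 0.984) were not higher by 1.5-fold. In the same list, the linker histone Hist1h1c was 2.07-fold higher and H3f3b, the replication-independent histone H3.3, was at 2915 against 1586 CPM (1.84-fold). The secreted protease Adamts1 (ENSMUSG00000022893, chromosome 16, 85793827 to 85803113) was at 55.1 against 9.55 CPM (5.77-fold, 4.73 to 7.04). The nuclear noncoding RNA Neat1 was at 163 against 56.8 CPM (2.87-fold), and the ubiquitin ligase gene Mid1 at 64.1 against 25.5 CPM (2.51-fold).

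Heat shock genes with enough counts were close to level. Of 16 heat shock and co-chaperone genes, 13 had enough counts and none reached 1.5-fold, with a median log2 ratio of 0.07. Hspa8 was at 631 against 620 CPM and Hsp90aa1 at 180 against 167 CPM. Hspa1a, a strongly inducible member, had 9 against 16 UMIs (2.69-fold, 1.05 to 6.45) and Hspb1 13 against 28 UMIs (2.22-fold, 1.05 to 4.42), both under the CPM minimum. In the integrated stress and unfolded protein response 1 of 6 genes reached 1.5-fold, Atf4 at 168 against 111 CPM (1.51-fold), and the list's median was -0.07. The kinases and factors upstream of the early genes had a median of -0.03 over 14 genes, from -0.17 for Mapk3 to 0.30 for Elk4, with Srf at 0.03 and Creb1 at -0.01.

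Microglial identity genes stood close to the level of the other cells. All 15 homeostatic genes had enough counts, with log2 ratios from -0.20 for Fcrls to 0.02 for Sparc and a median of -0.05. P2ry12, the purinergic receptor that guides microglial processes, was at 3246 against 3586 CPM, and Tmem119 at 2008 against 2070 CPM. Among 15 lineage transcription factors the median was 0.01. Runx1 (0.49) stood highest, and Spi1, Irf8 and Mef2c lay between -0.06 and -0.01. Sall1, the microglia-restricted factor, was at 348 against 368 CPM.

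The lists of other microglial states had medians between -0.24 and 0.17, with single genes farther from level. The 12 disease-associated genes with enough counts, of 20 listed, had a median log2 ratio of 0.00, and none reached 1.5-fold. Apoe was at 1450 against 1128 CPM. Without the cells with border macrophage markers it was at 825 against 743 CPM. Interferon-stimulated genes had a median of -0.06 over 6 genes. For the share of cells, the whole list without Ifitm3 was used, with its genes of few counts. At least 3 UMIs of it were found, after thinning, in 4.47% (3.29 to 5.92%) against 4.43% (3.86 to 5.05%). Rsad2, an interferon-stimulated gene under the CPM minimum, had 62 against 37 UMIs (8.0-fold, 5.24 to 12.4). Ifit2, also under it, was 2.27-fold higher (1.52 to 3.35), and Ifit3 was 1.5004-fold higher (1.12 to 1.99). Antigen presentation genes of MHC class I and II, of which 3 class II genes entered the cell filter, had a median of 0.17 over 6 genes. Cell cycle genes had a median of -0.24 over 4 genes. Of these 4, Pcna was at 1.30 (1.07 to 1.58), Tyms at 0.987 (0.757 to 1.27), Mcm6 at 0.707 (0.484 to 1.01) and Stmn1 at 0.726 (0.605 to 0.867). At least 3 UMIs of the whole cell cycle list were found, after thinning, in 1 immediate early-high cell (0.0972%, 0.00246 to 0.540%). The same held for 34 of the other cells (0.703%, 0.488 to 0.981%). The 13 cell cycle genes listed summed to 113 against 137 CPM (0.824, 0.745 to 0.910). The proliferation markers Mki67, with 4 against 104 UMIs (0.184, 0.0491 to 0.484), and Top2a, with 5 against 117 (0.204, 0.0650 to 0.490), were lower. Both were under the CPM minimum, and their intervals cover counting error only.

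**Figure D4:**
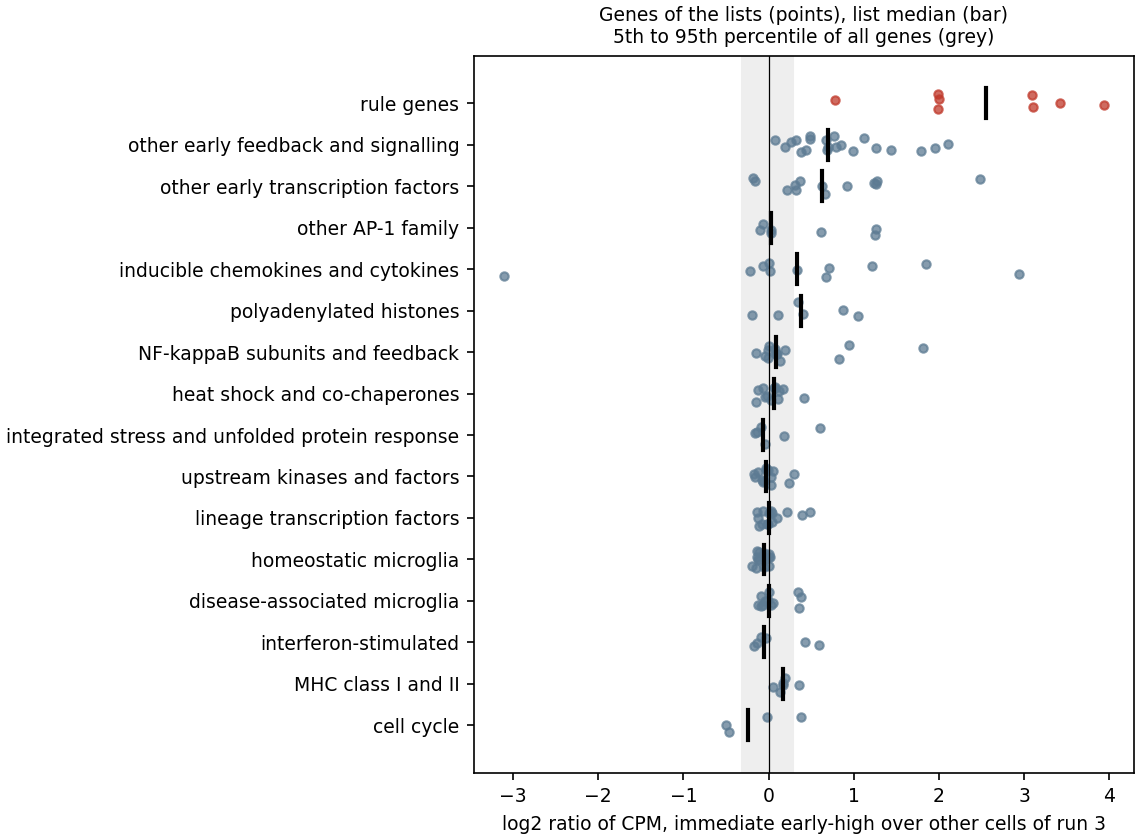
Log2 ratio of CPM, immediate early-high over other cells of run 3 (horizontal axis), for the genes of each list with enough counts (points) and the list median (black bar), with the rule genes in red. The grey band from -0.31 to 0.28 holds 9 in 10 of all genes, and of the lists plotted the medians of the rule genes and of the feedback, early factor, chemokine and histone lists lie to its right.

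The 3 lowest ratios among the named genes, those of Gzma, Ttr and Ccl5, belonged to genes whose UMIs lay mostly in a few of the other cells. Gzma, a granzyme of killer lymphocytes, had 1 UMI in the immediate early-high cells and 308 in the others, a ratio of 0.0155 (0.000391 to 0.0870). Ccl5, a chemokine of lymphocytes and activated microglia, was at 3.41 against 29.4 CPM, with 94.6% of the UMIs of the other cells in 10 cells. Ttr, the transthyretin of the choroid plexus, was at 9.26 against 121 CPM, with 93.6% of the UMIs of the other cells in 10 cells. Markers of T and NK cells and of choroid plexus stood at 0 and 11.7 CPM in the immediate early-high cells, against 16.3 and 128 CPM in the others. Without the cells that carried border macrophage, T and NK or choroid plexus markers, the log2 ratios of Gzma and Ttr were 1.26 and 0.02, so neither was lower in the remaining cells, where few UMIs of Gzma were left. Ptger3, a prostaglandin E2 receptor, was at 4.63 against 11.4 CPM (0.405, 0.239 to 0.647), and its UMIs were spread, with 8.93% of those of the other cells in 10 cells. The other named lower genes, among them Zfp760, Bend6, Gid4, Zfp322a and Jak2, had ratios of 0.520 to 0.637.

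Along the measured rule-gene share the difference was graded, with no sharp step at the threshold. Cells next to the threshold had medians of 16 and 20 rule-gene UMIs, so counting error moves cells across it. A step blurred by that error cannot be told from a gradient here. Passing cells of run 3 were placed in 9 bins of the rule-gene share, from 999 cells under 0.05% to 25 cells at 1.5% or more. Btg2 was higher in each bin than in the one before, from 313 CPM in the lowest to 1827 CPM just below the threshold, 2336 CPM just above it and 5080 CPM in the highest. Klf2 went from 18.0 to 181, 232 and 1536 CPM at the same points, and Jund from 293 to 764, 969 and 2478 CPM. Ier5, Ier3, Ppp1r15a, Nfkbiz, Rgs1, Rhob and H3f3b also were higher at each of the 8 steps. The step across the threshold was 1.28-fold for Btg2 and 1.28-fold for Klf2.

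Other genes did not follow the score in this way. Ccl4 was at 152 CPM in the lowest bin, 17.8 in the next and 397 CPM at 0.75 to 1%, and it went up at 4 of the 8 steps. A single cell held 528 of the 567 Ccl4 UMIs of the lowest bin, so the level there rests on that cell. Tmem119 went from 1978 to 2082 CPM and Hspa8 from 624 to 632 CPM between the lowest and the highest bin. P2ry12 was at 3607 CPM in the lowest bin, 3563 CPM just below the threshold and 2577 CPM (2239 to 2952) in the highest.

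**Figure D5:**
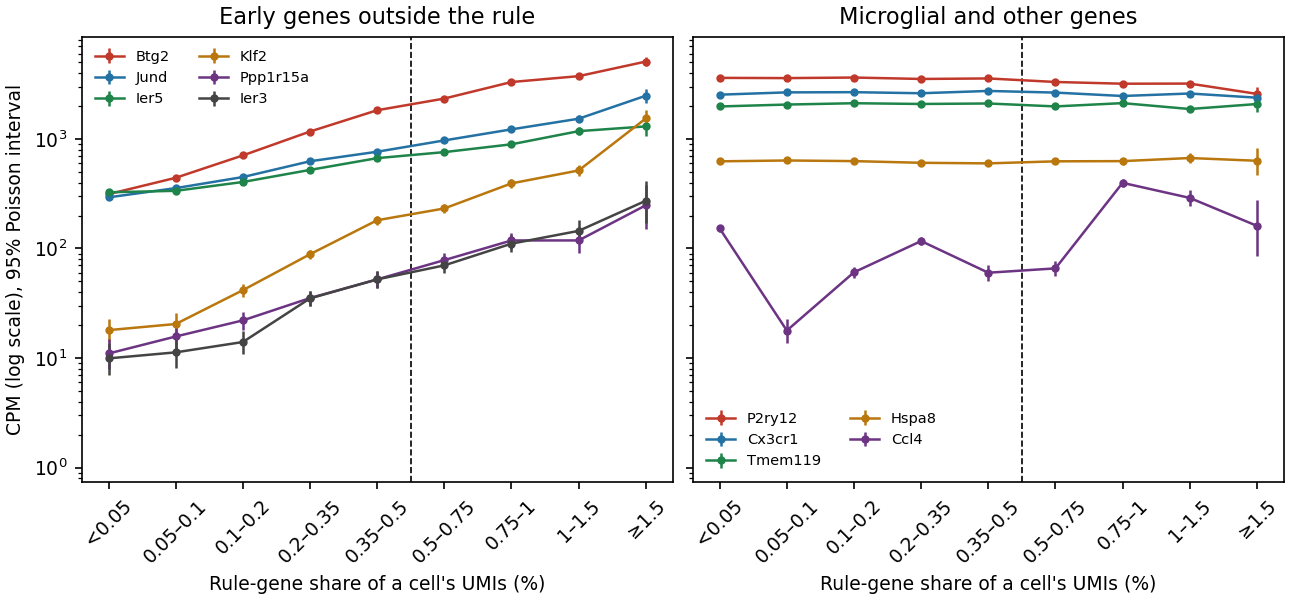
CPM (vertical axis, log scale, with 95% Poisson intervals) in 9 bins of the rule-gene share of a cell's UMIs (horizontal axis, in percent) for passing cells of run 3, with the threshold as a dashed line. On the left Btg2, Jund, Ier5, Klf2, Ppp1r15a and Ier3 are higher in each bin than in the one before. On the right Cx3cr1, Tmem119 and Hspa8 stay nearly level. P2ry12 is lower in the highest bin (2577 CPM) than in the lowest (3607 CPM). Ccl4 goes up and down, and 1 cell holds 528 of its 567 UMIs in the lowest bin.

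The immediate early-high cells also differed among themselves. The 377 cells with a Fos UMI, at a median depth of 3860 UMIs against 3562 in the 687 without, had Dusp1 2.49-fold higher (2.06 to 3.01), Klf4 2.22-fold and Klf2 1.76-fold (1.58 to 1.96). Jun (1.03), Junb (1.10) and Egr1 (1.08) were nearly level between them. The cells with Fos also had a higher median rule-gene share, 0.817% against 0.677%. Along that share Dusp1 and Klf2 went up at 8 of the 8 steps between bins and Klf4 at 7. Whether the differences go with Fos or with the share was not tested. Jun, Junb, Egr1 and Dusp1 are themselves part of the sum that chose the cells. Ccl2 was at 18.6 CPM in the cells with Fos and at 109 CPM in those without, and Ccl4 at 89.1 against 253 CPM. Without the 10 immediate early-high cells highest in the gene read, Ccl2 stood at 12.9 against 12.8 CPM and Ccl4 at 62.7 against 56.2 CPM, so neither was lower in the cells with Fos. Of the 12 cells with border macrophage markers, 11 had a Fos UMI. In those 12 cells Fos was at 1814 CPM (1485 to 2194) against 237 CPM (222 to 252) in the other 1052, Dusp1 at 838 against 103 CPM, and Junb at 941 against 2021 CPM. Without them the ratios of Dusp1, Klf4 and Klf2 were 2.15, 1.95 and 1.78.

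The immediate early-high cells included a small chemokine-rich set. At least 3 UMIs of Ccl3 and Ccl4 together were found in 88 immediate early-high cells (8.27%) and in 108 others (2.17%). Within the immediate early-high cells, these 88 had Ccl2 at 655 against 17.4 CPM (37.6-fold, 28.5 to 50.3) and Atf3 at 162 against 28.1 CPM (5.77-fold, 4.13 to 8.005). A single one of the 1064 cells held 102 of the 307 Ccl2 UMIs. Without the 10 immediate early-high cells highest in the gene read, Ccl2 had 9 UMIs in the chemokine-rich cells against 43 in the rest (2.25-fold, 0.964 to 4.68) and Atf3 had 19 against 90 (2.28-fold, 1.31 to 3.77). Lpl, lipoprotein lipase, was 4.62-fold higher, Ccl12 3.02-fold, Adamts1 2.95-fold and Id2 2.55-fold. Without the 10 highest cells of each gene these ratios were 1.65 (0.867 to 2.91) for Lpl, 1.31 (1.03 to 1.64) for Ccl12, 2.002 (1.22 to 3.15) for Adamts1 and 1.74 (1.24 to 2.40) for Id2. Il1b had 12 of its 20 UMIs and Spp1 10 of its 16 UMIs in the 88 cells. Without the 12 cells with border macrophage markers, Il1b had 8 UMIs in the chemokine-rich cells and 3 in the rest. Jun (0.989), Junb (1.04), Egr1 (1.05) and Fos (1.17) were close to the level of the remaining 976 cells, and P2ry12 was lower (0.788, 0.737 to 0.841). Of the other rule genes, Dusp1 (1.88, 1.45 to 2.42) and Ier2 (1.44, 1.25 to 1.67) were higher in the chemokine-rich cells. The median rule-gene share was 0.791% in the chemokine-rich cells and 0.711% in the remaining ones.

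The cells of both sexes were represented. At least 2 Xist UMIs without a Y-linked UMI were found in 38.2% of the immediate early-high cells (35.2 to 41.2%) and in 42.5% of the others (41.1 to 43.9%). A Y-linked UMI without Xist was found in 28.7% (26.0 to 31.5%) and 26.9% (25.7 to 28.1%). Both kinds, which a single cell does not normally express, were found in 30 immediate early-high cells (2.82%) and 139 others (2.80%). Between runs, 10 barcodes of run 3 also occurred in run 1 and 9 in run 2, of which 3 were immediate early-high cells.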

How the data were processed

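Single-cell RNA of sorted cells was counted in 3 10x Genomics runs. The authors deposited gene-by-barcode tables of raw UMI counts, with 31053 genes and no normalization. Software versions 3.0.2 (run 1) and 3.1.0 (runs 2 and 3) stand in the headers of the deposited tables. The submitters' processing notes name Cell Ranger, Seurat 4.0 and mm10, with no roles given. Run 3 held 6226 barcodes and 24225612 UMIs. The filters on UMIs, genes, mitochondrial share and MHC class II left 6108, 6098, 6078 and 6032 cells in turn.

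Counts were summed over the immediate early-high and the other cells of run 3 and scaled to CPM, and ratios carry exact conditional binomial (Clopper-Pearson) 95% intervals. With 1 library per population no p-value was computed. How well the ratio is recovered was tested on simulated data. These were Poisson counts summed per population, without single cells and without a choice of cells by counts. They therefore do not test the intervals for UMIs that lie in a few cells. Genes needed 10 CPM over all passing cells. Named are the 15 genes per direction, at least 1.5-fold different, whose interval lies farthest from 1, without ribosomal, mitochondrial or unnamed genes, and genes of the fixed lists. Some genes that meet this rule are not reported here. No doublet caller was run, and cells with Xist and Y-linked UMIs were left out as an alternative. Of the gene IDs, 30934 were found in GENCODE M21 (GRCm38), which gives the coordinates. The cells, lists and the splits by Fos and by Ccl3 and Ccl4 were chosen with earlier results of these data known. Python 3.11.15, numpy 2.4.6, scipy 1.17.1 and pandas 2.3.3 were used.

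Alternatives were other thresholds, each rule gene left out, other filters, depth classes, thinning to 2000 UMIs, mean CPM per cell, other totals and other comparison cells. Chosen after seeing the data were a cap of 3 UMIs per cell and gene, and leaving out cells with markers of border macrophages, T and NK cells or choroid plexus, barcodes seen in another run, and the 10 highest cells per gene, in each population and in the splits by Fos and by Ccl3 and Ccl4.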

Additional observations from a re-analysis of the deposited data

Results flagged for a closer look

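The rule was also met by 8 cells of run 1 and 15 cells of run 2, which enter none of the comparisons above. They were flagged as a signal outside the measured population. They make up 0.115 and 0.224% of the passing cells of those runs, against 17.6% in run 3.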

How the results depend on the processing

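Depth limits genes under 10 CPM, and the run holds 1 library, so the intervals do not cover differences between animals. No paired analysis was possible because the series has a single group and the comparison uses a single run. Of 428 values of list medians under 27 settings, 390 moved by no more than a reference width and 38 by more. That width was the median half-width of the counting intervals of the list's single genes. It is not the counting error of the list median itself, so small moves of a median can pass as unchanged. Of 1053 values of single-gene log2 ratios, 854 stayed within the half-width of the gene's own counting interval, 190 moved beyond it and 9 changed sign. The causes were not tested, except that a subset of cells leaves fewer UMIs per gene.

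Medians of lists and values of genes below are log2 ratios of CPM. At a threshold of 0.25%, 38.2% of the cells were selected, with 3 genes at least 2-fold lower and a homeostatic median of -0.020. At 1% the share was 2.90%, with 71 genes higher and 204 lower, and Hmgn3 was at 0.088. The medians at 1% were 0.31 (other AP-1), 0.86 (feedback), 0.11 (integrated stress), 0.15 (histones), -0.12 (homeostatic), 0.34 (MHC) and 2.07 (border macrophage markers). Without the MHC class II filter the MHC median was -0.24.

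Against other cells under 0.1% of rule-gene UMIs, 66 genes were higher and 12 lower, with medians of 0.93 (feedback), 0.70 (histones) and 1.15 (border). Thinning to 2000 UMIs per cell gave 17 lower genes. In cells under 3000 UMIs, 94 genes were higher and 311 lower, the medians were -0.21 (chemokines), -0.44 (interferon), 0.45 (cell cycle) and 1.19 (border), and Zfp952 was at 0.25. In cells of 3000 to under 6000 UMIs the border median was 0.14. In cells of at least 6000 UMIs, 102 genes were higher and 324 lower, and the medians were 0.18 (histones), -0.12 (homeostatic), -0.11 (disease-associated), 0.83 (interferon), -0.17 (MHC) and 3.06 (border), with Ttr at 1.56, Ptger3 at 0.56 and Hmgn3 at 0.15.

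Genes with at least 50 CPM gave 11 higher and 1 lower, with an early factor median of 0.92. No filter gave 1001 higher and 381 lower, with medians of 0.32 (other AP-1), 0.71 (chemokines) and 0.43 (interferon).

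With a rule gene left out of the sum, the share selected was 6.42% without Jun, 10.2% without Junb, 13.9% without Egr1, 14.9% without Zfp36 and 16.4% without Ier2. The lower genes then numbered 54 without Jun, 15 without Junb and 10 without Egr1. Border medians were 0.10 without Fos, 1.82 without Jun, 1.53 without Junb, 1.21 without Egr1 and 0.40 without Ier2. Without Jun the homeostatic median was -0.15 and the MHC median 0.34, without Junb the interferon median was 0.31, and without Egr1 the feedback median was 0.81.

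A cap of 3 UMIs gave 3 lower genes, medians of 0.49 (feedback) and 0.026 (homeostatic), and Ttr at 0.011. Leaving out cells with 1% of UMIs from other cell types gave Ttr at 0.093. Leaving out cells with border macrophage, T and NK or choroid plexus markers gave 3 lower genes, Gzma at 1.26 and Ttr at 0.020.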

Other observations

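Genes at least 2-fold higher in the immediate early-high cells were short. Their median span on the genome was 5.15 kb, against 3.85 kb for the rule genes, 17.9 kb for the genes at least 1.5-fold lower and 24.0 kb for all 8243 genes compared. Of the 36 higher genes, 10 were noncoding, among them Neat1, against 174 of all genes.

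Numbered zinc finger genes of the Zfp family, a group chosen after its values were seen, made up 6 of the 47 genes at least 1.5-fold lower (12.8%) and 2.33% of all genes compared. Zfp760 was at 12.9 against 24.7 CPM and Zfp322a at 38.5 against 60.5 CPM. The AU-rich nonamer bound by tristetraprolin (TTATTTATT) was found in the annotated 3′ UTR of 3 of the 8 rule genes, of 5 of the 26 higher genes with a 3′ UTR (19.2%) and of 654 of 8062 genes in all (8.11%). Among genes with a 3′ UTR of 500 to 2000 bases it was found in 0 of 14 higher genes and in 5.85% of all genes.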
